A study of Mus musculus with 12 samples.

Results

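Cxcr2 and 4 of its chemokine ligands, Cxcl1, Cxcl2, Cxcl3 and Cxcl5, were followed across every annotated cell class of tumours grown from the mouse mammary carcinoma line 4T1. These 5 genes were taken by symbol, by a rule that uses no measured value, though with earlier results of these data known. They are 5 of 19369 genes in the tables of whole tumours and of 18574 genes in those of enriched leukocytes, and all 5 were measured in both. Female BALB/c mice of 9 to 11 weeks bore mammary fat pad tumours of clone E, EM1, EM2, EM3 or M, each grown from a single cell, or of the parental line. The labels say that the clones cover epithelial, intermediate and mesenchymal states, and each group is represented by 1 tumour. Each tumour gave a Total library of dissociated cells and a CD45 library of cells bound by magnetic beads against CD45, the surface protein of leukocytes, so that 12 libraries were available. The hosts are immunocompetent, and a clone is 1 line grown from 1 cell, so a value of a clone's tumour stands for neither other clones of the same state nor other mice.

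CXCR2 is a G-protein coupled receptor on neutrophils, the main granulocytes of blood. Its ligands share a glutamate-leucine-arginine motif ahead of the first cysteine pair, are released by injured or inflamed tissue and draw neutrophils out of the vessels. Their genes are early targets of NF-kB, the transcription factor switched on by interleukin 1 and tumour necrosis factor, and their messenger RNAs are short-lived. The 4T1 line is known for tumours rich in neutrophils and for its release of G-CSF, the growth factor of the neutrophil lineage. The question followed here was which cells held the messenger RNA of these chemokines in each tumour.

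The 4 ligand genes lie on the forward strand of chromosome 5 within 146.6 kb, in the order Cxcl5 (90759360 to 90761624), Cxcl3 (90786103 to 90789600), Cxcl1 (90891241 to 90893115) and Cxcl2 (90903871 to 90905938), and Cxcr2 lies on the forward strand of chromosome 1 (74153989 to 74161246). Coordinates are of whole protein-coding genes in GENCODE on GRCm38, the assembly also called mm10. The 120 bases before the transcription start of RefSeq are shown for the 3 neighbouring ligands, because all 3 hold the same exact form of the NF-kB motif, GGGAATTTCC, which is in capitals. They are from RefSeq on GRCm38.p6, 5′ to 3′, at chr5:90891125-90891244 for Cxcl1, chr5:90903779-90903898 for Cxcl2 and chr5:90785981-90786100 for Cxcl3, and 4 of the 5 genes had an entry, all but Cxcl5.
Cxcl1: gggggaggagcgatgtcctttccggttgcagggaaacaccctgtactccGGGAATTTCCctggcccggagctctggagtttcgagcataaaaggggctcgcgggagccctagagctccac
Cxcl2: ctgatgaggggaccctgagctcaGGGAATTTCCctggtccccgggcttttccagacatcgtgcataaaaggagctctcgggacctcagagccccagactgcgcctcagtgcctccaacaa
Cxcl3: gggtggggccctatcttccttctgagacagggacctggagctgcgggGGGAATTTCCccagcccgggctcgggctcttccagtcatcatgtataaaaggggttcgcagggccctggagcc
The RefSeq start differs from the gene start given above, and the shown bases of Cxcl1 and Cxcl2 reach past the latter. Counted from the RefSeq start, the match covers bases 71 to 62 before the start in Cxcl1, 97 to 88 in Cxcl2 and 73 to 64 in Cxcl3. Over the 250 bases before every start, searched on both strands, 28 of 32851 windows (0.0852%) hold this exact sequence. The letters were taken from the match of the NF-kB consensus that these 3 promoters share on the gene's strand, so the 3 are among the 28. The consensus itself, searched on both strands, is in 1281 of these windows, and its match on the other strand overlaps the capitals in each of the 3. Cxcr2 has neither in the 120 bases at chr1:74153874-74153993. These are matches of letters only. The longest run of identical bases between transcripts of Cxcl2 and Cxcl3 is 110, against 23 between Cxcl1 and either of them and at most 12 with Cxcl5. How the counting treated reads in the shared run is not given in the sources used here, so the split of counts between Cxcl2 and Cxcl3 is uncertain.

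The libraries held 28083101 to 122055131 UMIs, counts of single captured RNA molecules, in 6709 to 13467 cells each. Levels are given as CPM, the UMIs of a gene per 1000000 UMIs summed over all cells of a class. Intervals are exact at 95% and cover counting error only, and with 1 tumour per group no test of one clone against another and no p-value from cells was made. The p-values below are of relations over the 6 tumours. Marker genes of the 9 lists checked in the Total libraries were highest in the class of their name for all but Klrb1c and Serpine2. In the CD45 libraries C1qa, C1qb and C1qc were highest in the class called other myeloid cells and not in macrophages. The first 16 bases of the cell barcodes were shared by 12.2% to 19.1% of the smaller library in 14 pairs of libraries and by at most 1.91% in the other 52 pairs. The 14 pairs join the libraries of E with EM3, those of EM1 with EM2, both of M and both of the parental tumour. Values of EM1, EM2, M or the parental tumour against E therefore also compare barcode groups, and barcode group and clone cannot be told apart there. Another 12 pairs shared 84 to 189 whole barcodes.

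The 4 ligands fell into 2 patterns of source (plot of shares by class). Of Cxcl1 UMIs in the Total libraries, annotated tumour cells held 27.2% in Clone E, 61.2% in EM3, 89.0% in EM1, 77.7% in EM2, 60.2% in M and 86.2% in the parental line, the largest share in 5 of 6 tumours. In Clone E macrophages held more, 48.2%, and 31.2% in EM3, against 4.46% to 11.4% in the other tumours. Of Cxcl5, tumour cells held 17.2% in Clone E, 46.1% in EM3, 89.9% in EM1, 61.2% in EM2, 66.3% in M and 74.2% in the parental line, and fibroblasts 44.7% in Clone E, 15.8% in EM3, 7.57% in EM1, 30.9% in EM2, 28.5% in M and 20.2% in the parental line. Macrophages held 23.4% in Clone E, 33.3% in EM3, 1.09% in EM1, 3.78% in EM2, 3.32% in M and 3.11% in the parental line of Cxcl5, more than tumour cells in E and more than fibroblasts in EM3. Of Cxcl2, macrophages held 71.7% in Clone E, 83.0% in EM3, 64.7% in EM1, 59.1% in EM2, 42.5% in M and 35.8% in the parental line. Granulocytes held 21.1% in Clone E, 6.30% in EM3, 13.6% in EM1, 3.90% in EM2, 33.6% in M and 3.40% in the parental line. Tumour cells held 1.58% in Clone E, 7.24% in EM3, 13.3% in EM1, 28.7% in EM2, 11.2% in M and 53.8% in the parental line, so the parental tumour was the only one of the 6 with most Cxcl2 UMIs in tumour cells. Cxcl3 came from macrophages in every tumour, with 81.5% to 92.2% of its UMIs. A share combines the number of cells, the RNA in each and the level. Tumour cells made up 7.13% of the cells of Clone E and 23.0% to 56.4% of the other Total libraries, and their median depth was 6509 to 15260 UMIs, against 779.5 to 1460 for granulocytes. With every cell of at least 500 UMIs given the same weight by thinning to 500 UMIs, the median tumour-cell share over the 6 tumours fell. It was 3.80% of Cxcl2 in place of 12.2%, and 0.874% of Cxcl3 in place of 1.63%. It was 48.9% of Cxcl1 in place of 69.5%, and 47.7% of Cxcl5 in place of 63.7%.

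**Figure D1:**
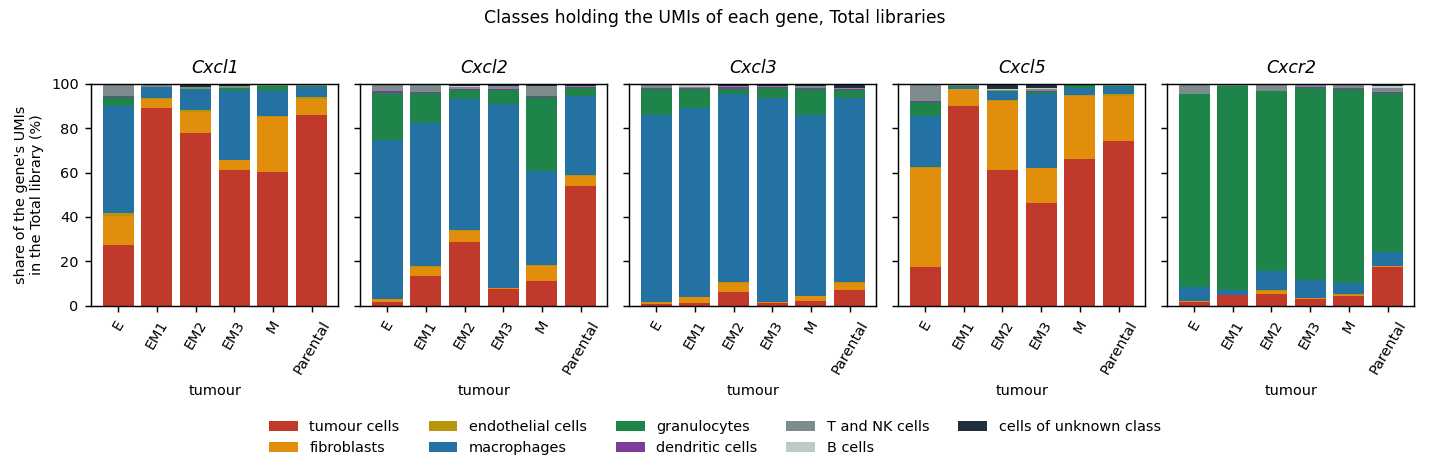
Share of the UMIs of each gene, in percent of the Total library, held by each annotated class in the 6 tumours (stacked bars, 1 panel per gene). Tumour cells hold 27.2% to 89.0% of Cxcl1, macrophages hold 81.5% to 92.2% of Cxcl3, and granulocytes hold 71.7% to 91.8% of Cxcr2.

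Summed over all cells of a Total library, the ligands ranked the tumours in different orders. Cxcl1 had 500 CPM in Clone E, 784 in EM3, 1172 in EM1, 1347 in EM2, 545 in M and 1688 in the parental line, with Clone E lowest and the parental tumour highest. Cxcl2 had 4005 CPM in Clone E, 2443 in EM3, 742 in EM1, 1531 in EM2, 1172 in M and 1344 in the parental line, with Clone E highest and EM1 lowest. Cxcl3 had 916 CPM in Clone E, 509 in EM3, 83.6 in EM1, 160.2 in EM2, 152 in M and 160.1 in the parental line, and Clone E was again highest. Cxcl5 had 31.7 CPM in Clone E, 19.3 in EM3, 182 in EM1, 68.9 in EM2, 60.5 in M and 90.6 in the parental line. The receptor Cxcr2 had 84.5 CPM in Clone E, 27.2 in EM3, 12.5 in EM1, 9.99 in EM2, 49.1 in M and 7.44 in the parental line. Clone E was the library with the smallest percent of tumour cells and, after EM3, the largest percent of macrophages.

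Cxcl1, a chemokine of stroma and epithelium, had its highest level in fibroblasts in all 6 tumours, although they were 0.798% to 2.47% of the cells. Fibroblasts had 3655 CPM in Clone E, 3584 in EM3, 5506 in EM1, 3789 in EM2, 4637 in M and 3429 in the parental line. Tumour cells had 1036 CPM in Clone E, 1236 in EM3, 1454 in EM1, 1642 in EM2, 535 in M and 1933 in the parental line. Fibroblasts were thus 1.77 to 8.67 times as high as tumour cells of the same library, lowest in the parental tumour and highest in M, and every interval of this ratio lay above 1. Tumour cells in turn were 2.26 to 4.69 times as high as macrophages, which had 456 CPM in Clone E, 473 in EM3, 310.2 in EM1, 484 in EM2, 236 in M and 431 in the parental line. Endothelial cells, which line the vessels, had 1039.8 CPM (927 to 1163) in E, 990.1 in EM2, 690.4 in M and 2025 in the parental tumour, and too few cells (46 and 37) in EM1 and EM3. Per cell, tumour cells held a mean of 6.95 Cxcl1 UMIs in E, 7.46 in M, 13.8 in EM1, 18.3 in EM3, 25.1 in EM2 and 28.4 in the parental tumour, and the cell with most held 199 to 376.

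T and NK cells and B cells are not known as sources of these chemokines and served as a measure of RNA from other cells. T and NK cells ranked the tumours in the same order as tumour cells did, with 131 CPM in Clone E, 184 in EM3, 202 in EM1, 303 in EM2, 106 in M and 591 in the parental line, and B cells of the parental tumour had 527 CPM. Granulocytes had 240.3 CPM in Clone E, 287 in EM3, 256 in EM1, 397 in EM2, 229 in M and 768 in the parental line, 1.27 to 2.16 times the T and NK level. In the CD45 libraries, which hold no tumour cells by annotation, T cells had 17.6 to 66.8 CPM and granulocytes 58.4 to 192. Granulocyte Cxcl1 in the CD45 library was thus 0.228 to 0.545 times that in the Total library of the same tumour. After each cell was thinned to 500 UMIs, 16.7% (M) to 42.7% (parental tumour) of tumour cells held a Cxcl1 UMI, against 6.37% (M) to 27.6% (parental tumour) of T and NK cells, and the tumour-cell share was the higher in all 6. Before thinning the shares were 68.2 to 91.7% and 18.5 to 57.7%, at median depths of 6509 to 15260 and 1099 to 2092 UMIs.

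**Figure D2:**
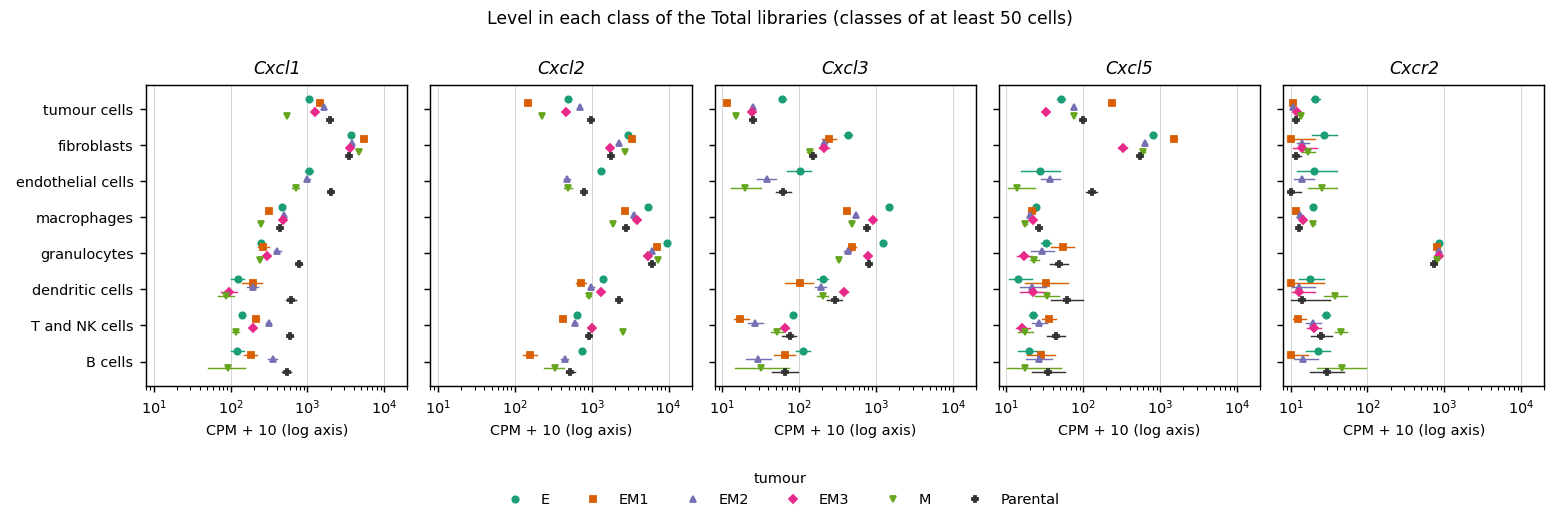
Level of each gene (CPM + 10, log axis) in each class of the Total libraries with at least 50 cells, 1 symbol per tumour, with bars for the exact 95% interval of counting. Cxcl1 and Cxcl5 are highest in fibroblasts, Cxcl2 in granulocytes, and Cxcr2 stands apart in granulocytes at 714 to 838 CPM.

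Cxcl2, a chemokine of activated myeloid cells, was highest per UMI in granulocytes, the cells that also carry its receptor. Granulocytes had 9631 CPM in Clone E, 5445 in EM3, 6986 in EM1, 6127 in EM2, 7183 in M and 6114 in the parental line. Macrophages had 5437 CPM in Clone E, 3921 in EM3, 2729 in EM1, 3563 in EM2, 1899 in M and 2761 in the parental line. The granulocyte level was 1.39 to 3.78 times that of macrophages, but macrophages are deeper cells and held 15.0 to 38.2 Cxcl2 UMIs each, against 6.84 to 13.3 in a granulocyte. Fibroblasts had 2965 CPM in Clone E, 1733 in EM3, 3359 in EM1, 2262 in EM2, 2707 in M and 1784 in the parental line, above macrophages in EM1 and M and below them in the other 4 tumours. Tumour cells had 482 CPM in Clone E, 455 in EM3, 137 in EM1, 689.5 in EM2, 213 in M and 961 in the parental line, with EM1 lowest and the parental tumour highest. T and NK cells of the same libraries had 632 CPM in Clone E, 1006 in EM3, 416 in EM1, 599 in EM2, 2570.4 in M and 921 in the parental line. The CPM of tumour cells was above that of T and NK cells in 2 of 6 tumours, EM2 and the parental tumour. The share of the T and NK class's Cxcl2 UMIs held by 50 cells ranged from 33.8% in Clone E to 85.6% in M. Without the cells picked by the rule described below, 48 of them in M, the class had 805 CPM in M. It then had 591 CPM in Clone E, 581 in EM3, 263 in EM1, 527 in EM2 and 661 in the parental line. These remainders were above the tumour cells in all but EM2 and the parental tumour. Thinned to 500 UMIs, 5.35% to 23.8% of tumour cells and 5.79% to 26.7% of T and NK cells held a Cxcl2 UMI, and the tumour-cell share was the lower in all 6. How much of the tumour-cell Cxcl2 came from other cells was not tested, so the shares of Cxcl2 given above for tumour cells include it.

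Cxcl3, a close relative of Cxcl2, followed it at a lower count. Macrophages had 1463 CPM in Clone E, 908 in EM3, 405 in EM1, 534 in EM2, 472 in M and 765 in the parental line, and granulocytes 1234 CPM in Clone E, 776 in EM3, 483 in EM1, 421 in EM2, 317 in M and 799 in the parental line. Macrophages were the higher in 4 tumours and granulocytes in EM1 and the parental tumour, where the ratios of macrophages over granulocytes were 0.839 (0.738 to 0.952) and 0.957 (0.886 to 1.03). The interval of the parental tumour includes 1, so that there the order was not settled beyond counting error. Tumour cells had 50.4 CPM in Clone E, 14.8 in EM3, 1.46 in EM1, 15.1 in EM2, 4.94 in M and 15.1 in the parental line, which is 29.0 to 277 times below macrophages. T and NK cells, at 7.32 to 73.7 CPM, were above tumour cells in all 6 tumours. The granulocyte markers in the tumour-cell class summed to 1502 CPM in Clone E and 103 to 529 in the other tumours, and the macrophage markers to 247 CPM in Clone E and 35.8 to 183 in the others. Clone E was thus highest in both and in Cxcl3, and the part of other cells' RNA in the Cxcl3 of tumour cells was not tested.

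Cxcl5, an epithelial and stromal ligand, had its highest level in fibroblasts in all 6 tumours. Fibroblasts had 796 CPM in Clone E, 315 in EM3, 1502 in EM1, 620.3 in EM2, 596 in M and 533 in the parental line. Tumour cells had 41.5 CPM in Clone E, 23.0 in EM3, 228 in EM1, 66.1 in EM2, 65.3 in M and 89.4 in the parental line, so that EM1 was highest and EM3 lowest in both classes. Fibroblasts were 5.96 to 19.2 times as high as tumour cells. Endothelial cells reached 119 CPM (99.1 to 142) in the parental tumour. Macrophages stayed at 7.68 to 16.2 CPM and T and NK cells at 6.19 to 34.1, below tumour cells in all 6 tumours. Of tumour cells, 9.50% to 22.8% held a Cxcl5 UMI before thinning and 0.623% to 6.17% after thinning to 500 UMIs. The cell with most Cxcl5 held 22 to 292 UMIs of it across the 6 tumours.

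The make-up of the ligand UMIs set the classes apart. Counts of different genes were not scaled by length, so only the same percent is compared between classes. Cxcl1 made up 64.4% to 79.9% of the 4 ligands' UMIs in tumour cells and 46.6% to 61.4% in fibroblasts, but 6.19% to 10.9% in macrophages and 2.16% to 9.95% in granulocytes. Cxcl2 made up 7.54% to 32.1% in tumour cells, 69.5% to 79.0% in macrophages and 79.2% to 92.8% in granulocytes, and no tumour's value in tumour cells reached that of its macrophages. There were 3.61 to 6.74 Cxcl2 UMIs for each Cxcl3 UMI in macrophages and 7.02 to 22.6 in granulocytes. In the pairs of ligands compared, a ligand was mostly found more often in cells that held the other. Pairs of other genes were not compared, so these counts have no background. With cells thinned to 2000 UMIs, macrophages with a Cxcl1 UMI held Cxcl2 in 87.7% to 95.3% of cells in the Total libraries and those without in 61.5% to 87.0%, higher with Cxcl1 in 6 of 6, as in the 6 CD45 libraries. Macrophages with Cxcl2 held Cxcl3 in 28.7% to 53.0% and those without in 5.75% to 14.1%, again higher in 6 of 6. Tumour cells with Cxcl1 held Cxcl2 in 19.6% to 53.4% and those without in 6.11% to 30.4%, higher in 6 of 6. In the 4 libraries with enough fibroblasts, those with Cxcl1 held Cxcl5 in 27.5% to 39.5% and those without in 2.56% to 7.14%, and held Cxcl2 in 67.7% to 85.5% against 19.4% to 52.0%. For Cxcl1 and Cxcl3 in tumour cells the difference went this way in 5 of 6 tumours, where 0.677% to 2.95% of the cells with Cxcl1 held Cxcl3, and the other way in Clone E, at 4.91% with and 5.87% without. For Cxcl1 and Cxcl5 in macrophages of the Total libraries it went this way in 5 of 6, all but EM2. RNA from other cells and differences in cell state were not told apart in these pairs.

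The CD45 libraries gave a second measure of the myeloid classes of each tumour. Macrophage Cxcl2 was 5213 CPM in Clone E, 4836 in EM3, 2931 in EM1, 4201 in EM2, 1909 in M and 4167 in the parental line, and macrophage Cxcl3 1445 CPM in Clone E, 1483 in EM3, 511 in EM1, 759.8 in EM2, 544 in M and 1306 in the parental line. The CD45 level was 0.959 to 1.51 times the Total level for Cxcl2 and 0.988 to 1.71 times for Cxcl3, with the largest ratio in the parental tumour in both genes. Granulocyte Cxcl2 was 11511 CPM in Clone E, 7142 in EM3, 7202 in EM1, 8561 in EM2, 8349 in M and 10138 in the parental line, higher than in the Total library in 6 of 6 tumours. Clone E had the highest granulocyte Cxcl2 and Cxcl3 of the 6 tumours in both libraries, and M the lowest macrophage Cxcl1 and Cxcl2 in both. For macrophage Cxcl3 the lowest tumour was EM1 in both. Macrophages held 84.1% to 94.0% of Cxcl1, 48.9% to 82.6% of Cxcl2 and 81.5% to 90.5% of Cxcl3 UMIs in the CD45 libraries, and granulocytes of M held 47.3% of its Cxcl2. The cells annotated as T/myeloid hybrids had 1159 CPM of Cxcl1 in Clone E, from 65 cells. Cxcl5 was at most 27.6 CPM in any CD45 class of at least 50 cells.

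**Figure D3:**
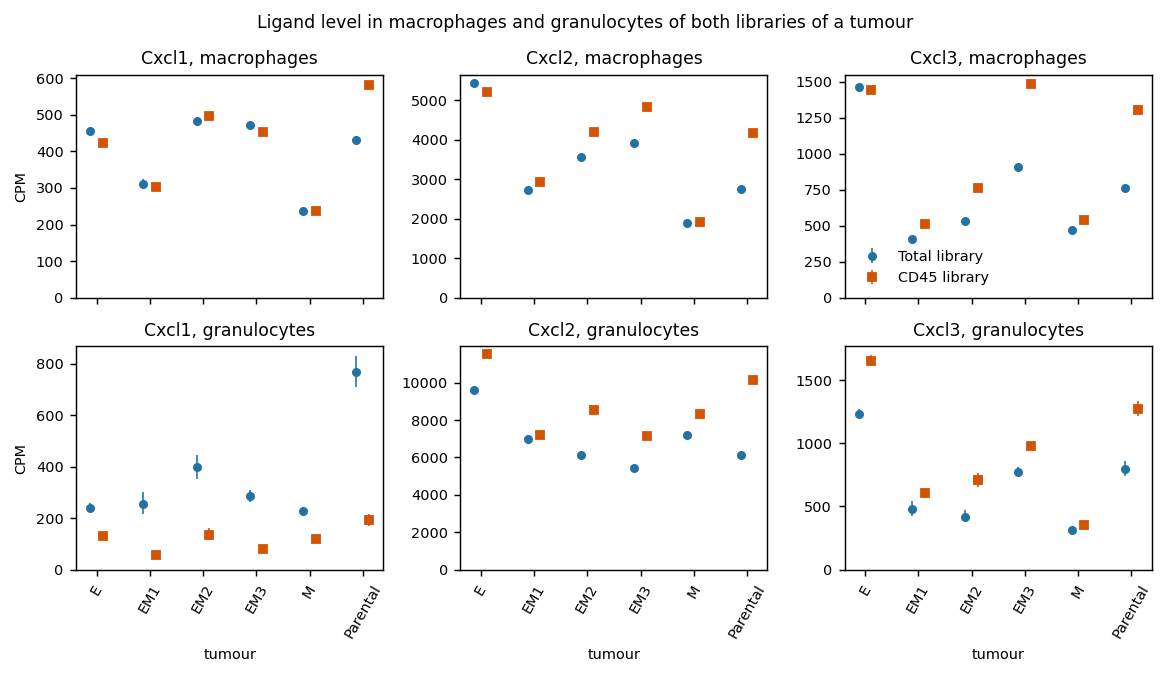
CPM of Cxcl1, Cxcl2 and Cxcl3 in macrophages (top) and granulocytes (bottom) of the 6 tumours, with circles for the Total and squares for the CD45 library and bars for the exact 95% interval of counting. Macrophage values of M lie lowest for Cxcl1 and Cxcl2 in both libraries, and granulocyte Cxcl1 is lower in the CD45 library of every tumour.

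Against Clone E, the ligands of tumour cells did not move as a block. The measure is the log2 of (CPM + 10) in a tumour over (CPM + 10) in Clone E, and a gene with at least 50 CPM in either tumour was tested, and called where its ratio passed 2-fold either way. All ratios share the Clone E sum and have no replicate check. In EM1, where 9.13% of all genes tested lay past 2-fold, 3 of the 4 ligands did: Cxcl2 was lower (-1.74), Cxcl3 lower (-2.40) and Cxcl5 higher (2.21). In M, where 14.8% did, Cxcl2 (-1.14) and Cxcl3 (-2.01) were lower. Of the ligands tested, Cxcl3 alone was called, and lower, in EM3 (-1.29, 10.6% of genes called), EM2 (-1.27, 9.98%) and the parental tumour (-1.27, 9.53%). Cxcl3 was tested in tumour cells only because Clone E reached 50.4 CPM, so no higher call was possible. Cxcl5, at 41.5 CPM in Clone E, was tested only through the other tumour, so no lower call was possible. With a pseudocount of 50 CPM Cxcl3 lost its call in all 5 tumours (-0.96 in EM1 to -0.62 in the parental tumour). In EM3 over E Cxcl5 was below the minimum in both and was not tested. Cxcl1 stayed within 2-fold in all 5, from -0.94 in M to 0.89 in the parental tumour. EM2 and EM1, which share droplet barcodes, differed from each other by 2.25 in Cxcl2 and -1.64 in Cxcl5 (EM2 over EM1), where 2.97% of all genes lay past 2-fold. Scaling by TMM factors, edgeR's trimmed mean of ratios, was used in place of the UMI total as an alternative. Before the pseudocount is added, it raises tumour-cell ratios over Clone E by 0.33 to 0.52. The rise is smaller for genes of low CPM, and Cxcl5 of the parental tumour went from 0.95 to 1.20. Under TMM scaling Cxcl1 passed 2-fold in EM1 (1.00), EM2 (1.15) and the parental tumour (1.22). So did Cxcl2 (1.30) and Cxcl5 (1.20) in the parental tumour. Cxcl2 of M (-0.76) and Cxcl3 of EM3 (-0.95), EM2 (-0.89) and the parental tumour (-0.99) no longer did. Without tumour cells that hold a UMI of Ptprc, the gene of CD45, Cxcl3 was -0.77 in EM3, -0.76 in EM2 and -0.73 in the parental tumour. In the same cells Cxcl1 of M was -1.02, Cxcl2 of M -0.84 and Cxcl2 of the parental tumour 1.36.

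In macrophages, every call of a ligand was a lower value than in Clone E. In the Total libraries Cxcl3 was called in EM1 (-1.83, where 4.55% of genes were called), EM2 (-1.44, 3.65%) and M (-1.61, 7.21%), and Cxcl2 in M (-1.51). None was called in EM3 (3.02% of genes) or the parental tumour (5.30%), where Cxcl2 was -0.47 and -0.97. In the CD45 libraries Cxcl3 was called in EM1 (-1.48, 4.27%) and M (-1.39, 6.66%) and Cxcl2 in M (-1.44), and none in EM2 (2.77%), EM3 (1.28%) or the parental tumour (3.31%). TMM scaling shifted the macrophage ratios, before the pseudocount, by -0.30 to 0.04. It put Cxcl1 of M past 2-fold in both libraries (-1.06 and -1.09). In the Total libraries it also put Cxcl2 of EM1 (-1.02) and of the parental tumour (-1.16) past 2-fold, and Cxcl3 of the parental tumour (-1.11). In the CD45 library it did so for Cxcl3 of EM2 (-1.02). Without macrophages that hold a Retnlg or Krt18 UMI, Cxcl2 of the parental tumour in the Total library passed 2-fold as well. Taken as the mean over cells of each cell's own CPM, Cxcl3 of M in the Total library was -0.96. Over the Total libraries, the macrophage markers of this class summed to 7242 to 14000 CPM and its granulocyte markers to 312 to 1498 CPM. The part of these differences in the ratios over Clone E was not tested. Of 13 inducers and receptors, 11 were tested in macrophages of each Total library over E. In EM3 none was called (3.02% of all genes), in EM1 Il6 was lower (4.55%), and in EM2 Il1a, Il1b and Il6 were lower and Tlr2 higher (3.65%). In the parental tumour Il1a, Il1b, Il1rn and Il6 were lower (5.30%). In M 4 were lower (Il1a, Il1b, Il6 and Csf3) and 1 higher (Tlr2), where 7.21% of all genes were called, around a median of -0.78 against 0.17 for all genes under scaling by the UMI total. Il1b, which encodes a main inducer of these chemokines, had 6795 CPM in macrophages of E, 4256 in EM1, 3731 in EM3, 3195 in EM2, 2156 in the parental tumour and 1755 in M. None of the 7 genes of NF-kB feedback and mRNA decay passed 2-fold in any of the 5, where 3.02% to 7.21% of all genes were called.

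In fibroblasts, compared in the Total libraries, the calls over Clone E were of Cxcl3 and Cxcl5. Cxcl3 had 425 CPM in Clone E, 202 in EM3, 238 in EM1, 203 in EM2, 129 in M and 142 in the parental line, with Clone E highest. It was lower than in Clone E in EM3 (-1.04, where 7.60% of all genes were called), EM2 (-1.03, 14.5%), M (-1.64, 11.4%) and the parental tumour (-1.52, 13.2%), and within 2-fold in EM1 (-0.81, 16.2%). Cxcl5 was lower in EM3 (-1.31), and within 2-fold in EM1 (0.91), where it was highest, and in the other 3 tumours (-0.57 to -0.35). Few cells carry these values, as the class had 52 cells in EM1, 84 in EM3, 135 in Clone E and at most 257. A Cxcl5 UMI was held by 11.9% to 37.7% of fibroblasts and a Cxcl3 UMI by 13.5% to 41.5%. The tenth of cells with most held 73.6% to 99.6% of Cxcl5 UMIs, and 58.6% to 94.8% of Cxcl3 UMIs in 5 libraries. Cxcl1 (-0.09 to 0.59) and Cxcl2 (-0.77 to 0.18) were within 2-fold in all 5. TMM scaling shifted the fibroblast ratios, before the pseudocount, by 0.16 to 0.43. It put Cxcl3 of EM2 (-0.62) and EM3 (-0.89) within 2-fold and Cxcl5 of EM1 past it (1.24). Without fibroblasts that hold a Ptprc UMI, Cxcl3 was -0.70 in EM2 and -0.82 in EM3, and as the mean over cells of each cell's own CPM it was -1.43 in EM1. Over the tumours, the granulocyte markers in the fibroblast class summed to 64.5 to 2322 CPM and the macrophage markers to 227 to 1476 CPM. The part of other cells' RNA in the Cxcl3 of fibroblasts was not tested.

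In granulocytes, Cxcl3 was lower than in Clone E in 3 of 5 tumours in either library. In the Total libraries it was lower than in Clone E in EM1 (-1.34, 4.46% of genes called), EM2 (-1.53, 4.71%) and M (-1.93, 4.28%), and within 2-fold in EM3 (-0.66, 2.27% of genes called) and the parental tumour (-0.62, 13.2%). In the CD45 libraries it was lower in EM1 (-1.43, 2.08%), EM2 (-1.21, 2.76%) and M (-2.19, 4.50%), and within 2-fold in EM3 (-0.75, 0.720%) and the parental tumour (-0.38, 2.52%). As the mean over cells of each cell's own CPM, Cxcl3 of EM2 in the CD45 libraries was -0.93. Cxcl2 stayed within 2-fold in all 10 comparisons, at -0.82 to -0.18. With cells of at least 650 genes it was -1.32 in EM2 in the Total libraries, and -1.43 in EM1 and -1.50 in EM2 in the CD45 libraries. Without granulocytes that hold a C1q UMI it was -1.05 in EM3 of the Total libraries, and with TMM scaling -1.01 in the parental tumour. Cxcl1 was higher in the parental tumour in the Total library (1.64), where T and NK cells were higher as well, at 591 against 131 CPM. In the CD45 libraries Cxcl1 was lower in EM1 (-1.04), and -0.87 with TMM scaling, and in the parental tumour it was 0.52, and 1.48 without granulocytes that hold a C1q UMI. EM3, which shares droplet barcodes with E, had no called ligand in macrophages or granulocytes of either library other than in Cxcl2 under the C1q setting given above.

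Cxcr2, the receptor, was concentrated in granulocytes. Granulocytes had 838 CPM in Clone E, 834 in EM3, 795 in EM1, 832 in EM2, 786 in M and 714 in the parental line in the Total libraries, and 934 CPM in Clone E, 954 in EM3, 1055 in EM1, 1181 in EM2, 871 in M and 888 in the parental line in the CD45 libraries. The 5 other tumours differed from Clone E by -0.23 to -0.01 on the log2 scale in the Total libraries and by -0.10 to 0.33 in the CD45 libraries, and no value passed 2-fold. Of the class sums outside granulocytes with at least 50 cells, none exceeded 37.1 CPM in the Total libraries, and macrophages lay 83.5 to 474 times below granulocytes. In the CD45 libraries the T/myeloid hybrids reached 67.1 to 81.1 CPM. Granulocytes held 71.7% to 91.8% of Cxcr2 UMIs in the Total libraries, lowest in the parental tumour, where tumour cells held 17.2% at 1.70 CPM (147 UMIs over 5881 cells). Tumour cells of the other tumours had 0.792 to 10.9 CPM, with the highest in Clone E, whose tumour-cell class also had most granulocyte markers. Cxcr1, the other receptor of this family, had 22.2 to 40.0 CPM in granulocytes and at most 8.59 in other classes.

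Granulocytes with and without a Cxcr2 UMI were compared in a limited set of genes, and several of these differed in the same direction in all libraries. The share of all granulocyte genes that would do so was not counted, so these counts have no background. The 12 libraries come from 6 tumours, a Total and a CD45 library each, so they are not 12 independent measures. Intervals here cover counting error and not the spread between cells. Each granulocyte of at least 500 UMIs was thinned to 500 UMIs, and 24.1% to 36.7% of these then held a Cxcr2 UMI. Shallower granulocytes were left out, from 0 in the Total libraries of EM3, M and the parental tumour to 359 of 1663 in the parental CD45 library. The split depends on depth: in the Total libraries 36.7% to 50.8% of all granulocytes held a Cxcr2 UMI before thinning, and 24.1% to 29.5% of the thinned ones after it. Whether the cells with and without a UMI are separate cell types was not tested. Cxcl2 was lower in the cells with Cxcr2 in 12 of 12 libraries, by -0.83 to -0.22 on the log2 scale, with intervals apart in all 12. In Clone E these levels were 8787 CPM with and 11371 without in the Total library, and 10031 and 14194 in the CD45 library. In M they were 5641 and 8440 in the Total library and 6610 and 10215 in the CD45 library. Also lower in 12 of 12 were Ccl3 (-1.85 to -0.92) and Ccl4 (-2.02 to -0.14), chemokines of activated phagocytes, and Ccrl2 (-1.62 to -0.77), a chemokine-binding receptor. Higher in 12 of 12 were Retnlg (0.63 to 1.39), S100a8 (0.30 to 0.80), S100a9 (0.18 to 0.67), Mmp9 (0.36 to 0.78), a granule protease, Mmp8 (0.28 to 1.01) and Csf3r (0.10 to 0.54), the G-CSF receptor. Intervals were apart in 12 libraries for Ccl3, Ccrl2, Retnlg, S100a8 and S100a9, in 11 for Mmp9, in 8 for Ccl4, in 7 for Mmp8 and in 5 for Csf3r. The other immature neutrophil genes did not all go with Mmp8. Ngp was higher with Cxcr2 in 10 of 12 libraries, Ltf in 9, Camp in 5 and Elane and Mpo in 4 each, and intervals were apart in the lower direction in 2 libraries for Ngp, 3 for Ltf and 2 for Camp. Of the mature neutrophil list, Il1r2 was higher in 9 of 12 libraries and Siglecf in 7, with intervals apart in 1 and 0. Cxcl1 was higher with Cxcr2 in only 1 of 12 libraries, from -1.98 to 0.18 (median -0.76), with intervals apart in the lower direction in 6. Cxcl3 was higher in 8 and lower in 4, from -0.29 to 1.11, so it did not go with Cxcl2 here. Its intervals were apart in 4 libraries, all in the higher direction. C1qa, a macrophage gene, was higher with Cxcr2 in 3 of 12 libraries, with intervals that overlapped in 11.

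**Figure D4:**
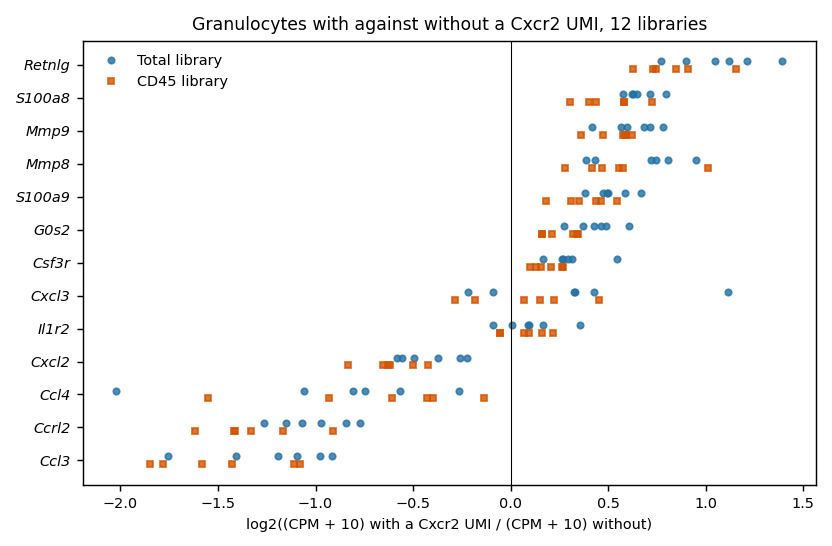
Log2 of (CPM + 10) in granulocytes with a Cxcr2 UMI over (CPM + 10) in those without, after thinning to 500 UMIs per cell, for 13 genes in the 6 Total (circles) and 6 CD45 (squares) libraries. Cxcl2, Ccl3, Ccl4 and Ccrl2 lie left of 0 in all 12 libraries, and Retnlg, S100a8, S100a9, Mmp9, Mmp8, G0s2 and Csf3r lie right of it.

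A small set of cells held most Cxcl2 of the T and NK class in Clone M. That class had 2570 CPM of Cxcl2 in M, against 416 to 1006 in the other tumours, and 85.6% of these UMIs lay in 50 of 1084 cells. The rule applied was chosen after the values were seen: at least 2 UMIs of Mcpt8, Cd200r3, Ms4a2 and Gata2 together and none of Cpa3 and Tpsab1. It found 48 cells in M with 35142 CPM of Cxcl2 (34055 to 36256), 70.3% of the class's and 3.20% of the library's Cxcl2, and the rest of the class had 805 CPM. Of the genes that picked them, these cells had 1477 CPM of Mcpt8, 1583 of Gata2, 863 of Cd200r3 and 44.5 of Ms4a2, and the rule itself favours such levels. Of genes outside the rule they had 6288 CPM of Hdc, the histamine-forming enzyme, 3371 of Il4, 41840 of Ccl3 and 14507 of Il6. The T-cell gene Cd3e had 311 CPM in them. The annotation of this library has no class of its own for them. The same rule found 2 to 8 cells in the T and NK class of each other tumour, holding 6.64% to 42.6% of that class's Cxcl2. In the granulocyte class of the M Total library it found 7 cells, at 4278 CPM of Cxcl2 against 7192 in the rest of that class. Among T cells, T/myeloid hybrids and granulocytes of the M CD45 library it found only 3 cells. These were T/myeloid hybrids, at 33972 CPM of Cxcl2.

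Genes around the axis were given by lists. Of the other ligands, Ppbp was highest in macrophages, at up to 70.3 CPM, as was Pf4, a platelet chemokine that does not bind CXCR2, at 151 to 636 CPM, and Cxcl15 reached at most 4.26 CPM in any class. Ackr1, the receptor that holds these chemokines on the walls of venules, was found in endothelial cells at 166 to 355 CPM, with at most 14.0 elsewhere. Among inducers, Il1b had 3295 to 5553 CPM in granulocytes and 1755 to 6795 in macrophages, and Il1a 229 to 791 CPM in macrophages. Their receptor Il1r1 was highest in fibroblasts, at 236 to 407 CPM, the class with the highest CPM of Cxcl1 and Cxcl5. Fibroblasts also led for Il6, at 1144 to 2250 CPM, and for Nfkbiz, an NF-kB cofactor of these promoters, at 437 to 524 CPM. Il17a did not exceed 52.0 CPM in T and NK cells. Csf3, the gene of G-CSF, had 893 to 3398 CPM in tumour cells and 999 to 1830 in endothelial cells.

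Over tumours, the interleukin 1 genes Il1a, Il1b and Il1rn of tumour cells were called lower than in Clone E in each of the 5 other tumours. In these comparisons 9.13% to 14.8% of all genes were called. Il1a (69.4 CPM in E and 5.19 to 25.9 in the others) and Il1rn (87.2 and 5.65 to 28.1) were tested only through Clone E, as was Il1b except in EM3, so that no higher call was possible there. Clone E's tumour-cell class also had most myeloid markers, and their part in this was not tested. Csf3 was lower in EM3 and M, and Il17ra in the parental tumour, while Tlr2 was higher in EM1 and EM2 and Il6 in EM1. With the TMM shift given above, Csf3 of EM3 lies within 2-fold. At the low CPM of Il1a and Il1rn the shift is smaller, and their ratios were not run with TMM scaling. Their calls near 2-fold may therefore depend on the scaling. Of the 7 NF-kB feedback and decay genes, all tested in tumour cells, 1 value passed 2-fold in the 5 comparisons, Relb higher in the parental tumour. Of all genes, 9.13% to 14.8% were called in these comparisons. In granulocytes the immature neutrophil list (Camp, Ngp, Ltf, Mmp8, Elane and Mpo) went opposite ways: Camp, Ngp and Ltf were higher in EM2 over E in both libraries, and Mmp8 was within 2-fold, where 4.71% of all genes in the Total and 2.76% in the CD45 libraries were called. Elane and Mpo were tested only through EM2 of the Total libraries, at 58.4 and 112 CPM, so that only a higher call was possible, and they had 0.976 and 5.98 CPM in its CD45 library. In M over E 3 of 4 were lower (Camp, Ngp and Ltf), where 4.28% of all genes were called, around -1.54 against 0.08. Cxcr2 was within 2-fold in both. The 3 genes whose class pattern was most like each member, over 45 class sums of the Total libraries and 8754 genes, were Fbln2, Fkbp14 and Lamb2 for Cxcl1 (Pearson r 0.90 for each), Rab32, Pygl and Cxcl3 for Cxcl2 (0.88, 0.87 and 0.86), Emilin2, Cxcl2 and Il1a for Cxcl3 (0.92, 0.86 and 0.86), Cryab, Cyp1b1 and Mmp3 for Cxcl5 (0.93, 0.92 and 0.92), and Stfa2l1, Retnlg and Wfdc21 for Cxcr2 (0.99 for each). Among the members, Cxcl1 and Cxcl5 had r of 0.84, Cxcl2 and Cxcl3 0.86, and Cxcl1 and Cxcl2 0.08. These class sums share libraries and are not independent.

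In the Total libraries the granulocyte percent ran against the Cxcl1 level of tumour cells. Granulocytes made up 29.9% of the Total library in M, 23.2% in E, 14.3% in EM3, 8.44% in EM1, 6.66% in EM2 and 5.81% in the parental tumour, the reverse order of tumour-cell Cxcl1 throughout, and of the Cxcl1 in T and NK cells. Over the 6 tumours, Pearson's r of log2(CPM + 10) with the granulocyte percent was -0.957 (2-sided exact permutation p = 0.00139, the smallest that 720 permutations can give), and Spearman's rho was -1 (exact permutation p = 0.00278). The Benjamini-Hochberg adjusted p was 0.0139 over a family of 10 relations, 5 ligand and class pairs against either library's granulocyte percent, chosen after the data were seen. Without M and the parental tumour, which lie farthest from the median Cxcl1, r was -0.979. Of 5832 genes tested in tumour cells, 10 (0.171%) had an r as low or lower and 19 (0.326%) an r as far from 0, Cxcl1 included. Adjusted over all 5832, the exact permutation p of Cxcl1 was 0.579. With 720 permutations over 6 tumours the design leaves little room to pass an adjustment over so many genes, and Cxcl1 did not pass it. With the granulocyte percent of cells outside the tumour class r was -0.974 (exact permutation p = 0.00417) and rho -0.943 (exact permutation p = 0.0167). With the granulocyte percent of the CD45 library r was -0.855 (exact permutation p = 0.05, adjusted 0.25) and rho -0.543 (exact p = 0.297), where granulocytes made up 50.6%, 24.2%, 27.5%, 15.0%, 11.9% and 25.0% in that order of tumours. Other relations of the family had adjusted p of 0.921 to 0.956. The percent of tumour cells itself had an r of -0.546 with the granulocyte percent (exact permutation p = 0.263). Barcode groups hold 1 or 2 tumours each, too few for a value within a group.

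**Figure D5:**
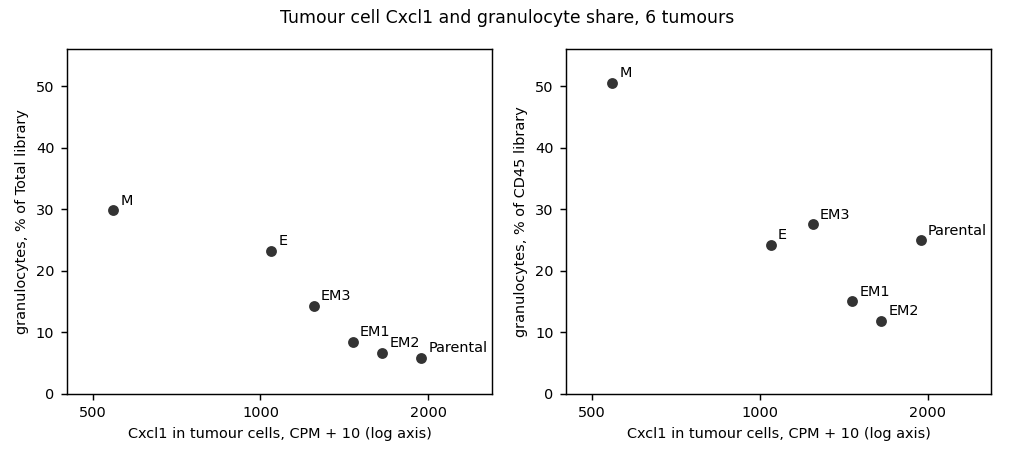
Granulocytes in percent of the Total library (left) and of the CD45 library (right) against Cxcl1 in annotated tumour cells (CPM + 10, log axis), 1 point per tumour. In the Total libraries the order is reversed throughout, from M at 29.9% to the parental tumour at 5.81%, and in the CD45 libraries EM3, at 27.5%, lies above E, at 24.2%, and the parental tumour, at 25.0%, above E, EM1 and EM2.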

How the data were processed

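Single-cell libraries were measured from 6 tumours, a Total and a CD45 library each. The authors deposited raw UMI counts per gene and cell, and per the file headers a table per library of UMIs and detected genes per cell with the authors' class names. Cell Ranger and mm10 are named in the submitters' processing notes. The labels name a fixed-RNA preparation kit together with 3′ reagents, and how cells were filtered, annotated or cleared of doublets is not given in the sources used here. Libraries differed in their fewest genes per cell (200 to 650).

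Scrublet in scanpy 1.11.5 (expected share 6%, 2 simulated pairs per cell, 2000 variable genes, 30 principal components, 1 score limit for all libraries) marked 3013 of 115612 cells (2.61%), which were left out. UMIs were summed per library and class and given as CPM, for classes of at least 50 cells, with exact Poisson intervals for levels and exact Clopper-Pearson intervals for shares at 95%, which cover counting error only. A sum at 0 allows up to 3 counts. Ratios between tumours used a pseudocount of 10 CPM and genes with at least 50 CPM in either tumour. Cells were thinned to 500 UMIs, or to 2000 UMIs to count ligands found in the same cells, and cells with fewer UMIs were left out there. Likeness is Pearson's r of log2(CPM + 10) over class sums. The relation across tumours used exact permutation tests. The members and lists (other genes of the axis, inducers, NF-kB feedback, receptor signalling, immature and mature neutrophil genes) were chosen with earlier results of these data known. Text names all members, the 3 genes most like each and members of those lists. TMM factors were from edgeR 4.0.16, with Python 3.11.15, numpy 2.4.6, scipy 1.17.1 and pandas 2.3.3. The ratio step was tested on simulated data. Alternatives were all deposited cells, a minimum of 650 genes, cells with another class's marker left out, thinning, means over cells, TMM, other pseudocounts, the other annotation column and leaving out each tumour.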

Additional observations from a re-analysis of the deposited data

How the results depend on the processing

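Between clones, no paired analysis was possible because each clone has 1 tumour. Classes, and the Total and CD45 libraries, could be compared in pairs over the 6 tumours, and those tests were not run. The median tumour-cell share over the 6 Total libraries was 69.5% for Cxcl1, 12.2% for Cxcl2, 1.63% for Cxcl3 and 63.7% for Cxcl5, and the median granulocyte share of Cxcr2 was 86.9%. In the same order these were 67.7%, 13.1%, 2.82%, 61.4% and 83.3% with all deposited cells, and 48.9%, 3.80%, 0.874%, 47.7% and 94.8% with cells thinned to 500 UMIs, which removes the greater weight of deep cells. Without cells holding a marker of another class they were 73.2% for Cxcl1, 14.8% for Cxcl2, 67.3% for Cxcl5 and 80.4% for Cxcr2. With at least 650 genes per cell they were 13.5% for Cxcl2 and 85.4% for Cxcr2. Leaving out each tumour in turn gave 61.2% to 77.7% for Cxcl1, 11.2% to 13.3% for Cxcl2, 1.25% to 2.00% for Cxcl3, 61.2% to 66.3% for Cxcl5 and 86.7% to 87.2% for Cxcr2. The r of tumour-cell Cxcl1 with the granulocyte percent was -0.992 to -0.940 without each tumour in turn and -0.855 with the CD45 percent. Of 180 CPM values, 9 moved by over 1.5 times with all cells, 18 without marker-holding cells, 21 with at least 650 genes and 11 as means over cells. Of 60 values of the Total libraries, 22 moved by over 1.5 times when taken from the class of the same name in the CD45 library. Leaving out marker-holding cells kept 6049 of 10735 cells in the CD45 library of EM3 and 5703 of 6516 in the Total library of EM1. Of 109 ratios between tumours, none that was called changed sign, and sign changes of ratios within 2-fold were not counted. The call changed for 20 with TMM scaling, 11 without marker-holding cells, 3 with at least 650 genes and 3 as means over cells. It changed for 8 with a pseudocount of 50 CPM and 1 with 1 CPM. With 50 CPM, tumour-cell Cxcl3 over Clone E was -0.63 in EM3, -0.96 in EM1, -0.63 in EM2, -0.87 in M and -0.62 for the parental line, Cxcl3 of fibroblasts was -0.91 in EM2 and -0.92 in EM3, and Cxcl1 of CD45 granulocytes was -0.74 in EM1. With 1 CPM, Cxcl5 of the parental tumour was 1.09. Without marker-holding cells, Cxcl1 of parental CD45 granulocytes was 1.48. As means over cells, Cxcl3 of EM2 CD45 granulocytes was -0.93. The other annotation column, used for the CD45 libraries and not run for the Total libraries, changed no call among 35 ratios. It also left all 60 CPM values within their counting intervals. How many cells change class between the 2 columns was not counted, so this alternative may test little. Counts of shallow classes limit Cxcl5 and Cxcr2 outside their main sources.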

Other observations

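Genes that carry or end the CXCR2 signal were measured in the granulocytes of all 12 libraries. Gnai2, the inhibitory G-protein subunit, had 411 to 539 CPM in granulocytes of the Total libraries, Grk2, a kinase that turns the receptor off, 139 to 217 CPM, and Arrb2, the arrestin that follows it, 182 to 324 CPM. Of the 8 genes of this list, 6 or 7 were tested in each comparison with Clone E, and 1 value passed 2-fold in the Total libraries, Rgs2 higher in M, as it was in the CD45 libraries. Of all granulocyte genes tested, 2.27% to 13.2% passed 2-fold in these comparisons of the Total libraries, so this count is near the background or below it. Of the 8 mature neutrophil genes, 7 were tested in the Total libraries. Ccl4 was lower in EM2, where 4.71% of all genes were called, and Ccl3 lower in EM3, where 2.27% were.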
